A study of Mus musculus with 68 samples.

Results

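Hoxa2 is a homeobox transcription factor gene of the second pharyngeal arch (PA2), and the effect described here is the part of the difference between embryos labelled Hoxa2-/- and wildtype embryos that PA2 showed beyond the first arch (PA1) at embryonic day (E) 9.5. It was the difference between labels in PA2 minus the difference between labels in PA1, on log2(CPM + 1), where CPM is the read count as scaled by the authors to a common library size, and both arches of an embryo were paired by replicate number. The 19 libraries of E9.5, of 68 in the series, were chosen by their labels alone. They were 5 wildtype PA1, 4 wildtype PA2, 5 PA1 labelled Hoxa2-/- and 5 PA2 labelled Hoxa2-/- libraries. All groups came from mice of the strain given as CBA/Ca/J x C57BL/10, without treatment, and PA1 and PA2 were dissected by hand from a single embryo. Wildtype embryo 4 had no PA2 library, so the paired comparison dropped it and set 5 embryos with the label against 4 wildtype embryos. The labels give neither the design of the Hoxa2 allele nor littermate relations. A whole arch holds several cell types, so fewer cells of a type and less RNA per cell cannot be told apart.

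Pharyngeal arches are bulges on both sides of the embryo's future throat, filled by neural crest and mesoderm and covered by epithelium. PA1 forms the jaws and forms without Hox gene expression in its neural crest. PA2 forms the stapes and hyoid parts under Hoxa2, and mice without Hoxa2 are known for PA1-like skeletal elements in place of PA2 elements. HOX proteins bind DNA together with homeodomain proteins of the TALE class (the Meis and Pbx families), and Meis genes have been reported as targets of Hoxa2 in PA2. Kcna5 encodes a voltage-gated potassium channel of the Kv1 family, Meis1 a TALE cofactor, and Chst8 a Golgi enzyme that transfers sulfate to a terminal N-acetylgalactosamine.

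These 3 genes passed the test, and the letters just before their RefSeq start sites are shown because they were searched for HOX and MEIS recognition sequences. Each run is the 250 bases upstream of the RefSeq transcript start on GRCm38.p6, 5′ to 3′ on the minus strand, on which all 3 genes lie. The RefSeq start of Kcna5 lies upstream of the gene start that GENCODE gives below, and that of Meis1 lies inside the GENCODE gene, so these windows differ from those GENCODE would give.
Kcna5, chr6:126535556-126535805: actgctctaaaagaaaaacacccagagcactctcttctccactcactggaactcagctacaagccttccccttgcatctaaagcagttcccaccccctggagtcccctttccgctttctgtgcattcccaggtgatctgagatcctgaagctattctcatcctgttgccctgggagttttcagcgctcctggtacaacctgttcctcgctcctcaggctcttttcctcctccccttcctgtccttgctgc
Meis1, chr11:19018970-19019219: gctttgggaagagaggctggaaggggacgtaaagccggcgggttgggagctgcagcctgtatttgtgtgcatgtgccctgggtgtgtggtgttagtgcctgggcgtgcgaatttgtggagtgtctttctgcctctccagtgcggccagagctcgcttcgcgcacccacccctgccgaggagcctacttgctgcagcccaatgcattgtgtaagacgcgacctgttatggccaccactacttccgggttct
Chst8, chr7:34812712-34812961: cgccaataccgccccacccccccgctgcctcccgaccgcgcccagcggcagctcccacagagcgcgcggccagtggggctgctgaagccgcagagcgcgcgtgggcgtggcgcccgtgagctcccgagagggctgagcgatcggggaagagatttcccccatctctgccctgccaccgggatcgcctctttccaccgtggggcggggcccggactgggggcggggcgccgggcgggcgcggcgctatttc
Both strands were searched for TGATNNAT, a HOX and PBX recognition sequence, and for TGACAG, a MEIS recognition sequence. Over the same window, 7.68% of 32851 RefSeq promoters held the first and 15.9% held the second. None of the 3 windows held either, which says only that these letters are not in these windows. GC content was 53.2% for Kcna5, 59.6% for Meis1 and 75.6% for Chst8.

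Recovered reads per library at E9.5 ran from 11923843 to 20453485, with a median of 15162049. Hoxa2 (chromosome 6, 52162417 to 52164831 on mm10) was not lower in PA2 libraries with the Hoxa2-/- label. Its CPM was 42.3, 49.2, 33.0 and 38.5 in wildtype PA2 and 48.9, 48.6, 53.5, 102 and 50.6 in PA2 with the label. The highest wildtype library lay above the 2 lowest labelled ones, so the groups overlapped, and the label effect in PA2 was 0.51 (limma, adjusted p = 0.062). Since the allele is not described, reads from outside a deleted part cannot check the label, and directions below refer to the libraries labelled Hoxa2-/-. Hoxa2 stayed at or below 0.721 CPM in all 10 PA1 libraries. Pitx1, a homeobox gene of PA1, ran from 17.8 to 51.5 CPM in PA1 and from 0.138 to 2.73 in PA2, so both genes parted the arches as labelled. The 10 arch mesenchyme markers summed to between 620 and 1096 CPM across the 19 libraries.

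A few features set libraries apart before any comparison. Over 19 genes, the 24 wildtype libraries of all stages but E10.0 did not overlap the other 44 libraries of the series, and at E9.5 this division coincided with the label, so that the 2 cannot be told apart there. Within an arch the label effects of these 19 genes reached -2.60, with a median absolute size of 0.996 in PA2. Their differences of differences ran from -0.47 to 0.30, with a median absolute size of 0.121. None of the 19 had an unadjusted p under 0.05 (lowest limma adjusted p = 0.68). The 19 were picked for standing apart in both arches at once, so shifts in the same direction in both arches follow from the choice. They cannot show whether subtracting PA1 removes the division in other genes. Wildtype embryos 2 and 3 stood farthest from the other wildtype embryos in their arch differences, by a median of 0.297 and 0.272 over all genes, against 0.146 to 0.214 for the other 7 embryos. Wildtype embryo 2 was also 1 of 2 embryos whose PA1 and PA2 did not deviate together from their group means (r = -0.0752; r = 0.0219 for wildtype embryo 3). Leaving out wildtype embryo 2 gave the highest number of passing genes, as given below.

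At E9.5, 3 of 18428 genes passed the paired test (0.0163%; limma, adjusted p under 0.05), and all 3, Kcna5, Meis1 and Chst8, fell in PA2 relative to PA1 with the label. In wildtype embryos each was higher in PA2 than in PA1, and with the label this excess was smaller. The arch differences of the embryos did not overlap between labels for any of the 3. Over all genes, 112 (0.608%) did not overlap with the label lower and 115 (0.624%) with the label higher. With an unadjusted p under 0.05 there were 1357 genes (7.36%), 780 lower (4.23%) and 577 higher (3.13%). Without wildtype embryo 2, 136 genes passed (0.738%), 108 lower and 28 higher, and these included the 3. Without labelled embryo 3 only Kcna5 passed. With only the E9.5 embryos estimating the spread, the 3 did not pass. Within PA2 alone 825 genes differed between labels (4.48%), 506 lower (2.75%) and 319 higher (1.73%) with the label. Within PA1 alone 4343 differed (23.6%), 2248 lower (12.2%) and 2095 higher (11.4%). Leaving out single embryos moved these counts, to 297 without wildtype embryo 1 and 470 without embryo 2 in PA2, and to 2718 without embryo 1 and 2767 without embryo 3 in PA1. With all libraries, 689 genes were called in both arches in the same direction and 1 in opposite directions.

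Kcna5 (chromosome 6, 126532551 to 126535412, minus strand) had the strongest difference among all genes by p-value. Wildtype PA2 had 28.6, 28.7, 21.8 and 30.1 CPM, and PA2 with the label had 6.55, 6.78, 6.31, 7.26 and 6.11 CPM. All 5 labelled libraries lay far below the lowest wildtype one. The means were 27.3 ± 3.72 CPM (SD, n = 4) and 6.603 ± 0.444 CPM (SD, n = 5), a 4.13-fold lower mean with the label. In PA1, wildtype libraries had 3.33, 4.56, 4.31, 3.85 and 2.70 CPM, and libraries with the label had 3.04, 3.24, 9.51, 4.57 and 3.67 CPM. The PA1 groups overlapped, with 1 labelled library, replicate 3, above the rest.

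Per embryo, PA2 exceeded PA1 in Kcna5 by 2.77, 2.42, 2.103 and 3.07 (log2) in wildtype and by 0.90, 0.88, -0.52, 0.57 and 0.61 with the label. The lowest wildtype embryo exceeded the highest labelled one, and in labelled embryo 3 the order of the arches was turned. The difference of differences was -2.10 (SE 0.256, 95% interval -2.63 to -1.58, limma adjusted p = 4.62e-05). Within PA2 the label effect was -1.89 (adjusted p = 6.3e-11), and within PA1 it was 0.21 (adjusted p = 0.41), or -0.03 without labelled replicate 3. Leaving out each of the 9 embryos in turn gave -2.27 to -1.85, and Kcna5 passed each time. With only the E9.5 embryos estimating the spread, the same -2.10 had an adjusted p of 0.18 (limma).

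Meis1 (chromosome 11, 18879817 to 19018985, minus strand) kept a PA2 excess with the label, but a smaller one. Wildtype PA2 had 151, 155, 165 and 164 CPM, and PA2 with the label had 75.2, 104, 102, 121 and 92.8 CPM. Every labelled library was below every wildtype one, and the labelled mean of 99.1 ± 16.9 (SD, n = 5) was 1.60-fold below the wildtype mean of 159 ± 6.93 (SD, n = 4). PA1 had 43.5, 42.0, 30.5, 43.4 and 55.2 CPM in wildtype and 47.2, 43.7, 71.6, 60.7 and 38.3 CPM with the label, and these groups overlapped.

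The arch differences of Meis1 were 1.77, 1.86, 2.40 and 1.56 (log2) in wildtype embryos and 0.66, 1.23, 0.51, 0.99 and 1.25 with the label. All embryos of both labels had more Meis1 in PA2 than in PA1, and the 2 ranges did not meet. The difference of differences was -0.97 (SE 0.158, 95% interval -1.29 to -0.65, limma adjusted p = 0.0076). It was made up of -0.69 within PA2 (adjusted p = 0.0018) and 0.27 within PA1 (adjusted p = 0.14), where without wildtype embryo 5 it was 0.36 and passed. Meis1 passed in 7 of 9 fits that left out an embryo, and not without wildtype embryo 3 (-0.80, limma adjusted p = 0.098) or labelled embryo 3 (-0.86, limma adjusted p = 0.055). With only the E9.5 embryos in the fit its adjusted p was 0.85.

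Chst8 (chromosome 7, 34674468 to 34812711, minus strand) was measured at low levels. Wildtype PA2 had 5.23, 5.46, 2.95 and 4.51 CPM, from 58 to 112 reads, and PA2 with the label had 1.65, 0.817, 1.16, 0.647 and 1.18 CPM, from 9 to 24 reads. All 5 labelled libraries were below all 4 wildtype libraries, and the mean was 4.15-fold lower with the label. The labelled PA2 values lay in the range of PA1, where wildtype had 0.676, 1.03, 1.16, 1.44 and 0.318 CPM and the label 0.792, 1.27, 1.41, 0.391 and 0.204 CPM, except for the 1.65 of replicate 1.

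Chst8 arch differences were 1.89, 1.67, 0.87 and 2.06 (log2) in wildtype and 0.57, -0.32, -0.16, 0.24 and 0.86 with the label. The lowest wildtype embryo, replicate 3, lay just above the highest labelled one, replicate 5. The difference of differences was -1.39 (SE 0.247, 95% interval -1.89 to -0.88, limma adjusted p = 0.0215), with -1.40 within PA2 (adjusted p = 2.9e-07) and -0.11 within PA1 (adjusted p = 0.71). Chst8 passed in 4 of 9 fits that left out an embryo. The call was lost without wildtype embryos 1 or 5 or labelled embryos 2, 3 or 4, where the adjusted p reached 0.192, and with only the E9.5 embryos in the fit it was 0.85. On the recovered reads edgeR gave -2.06 with an adjusted p of 0.35.

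**Figure D1:**
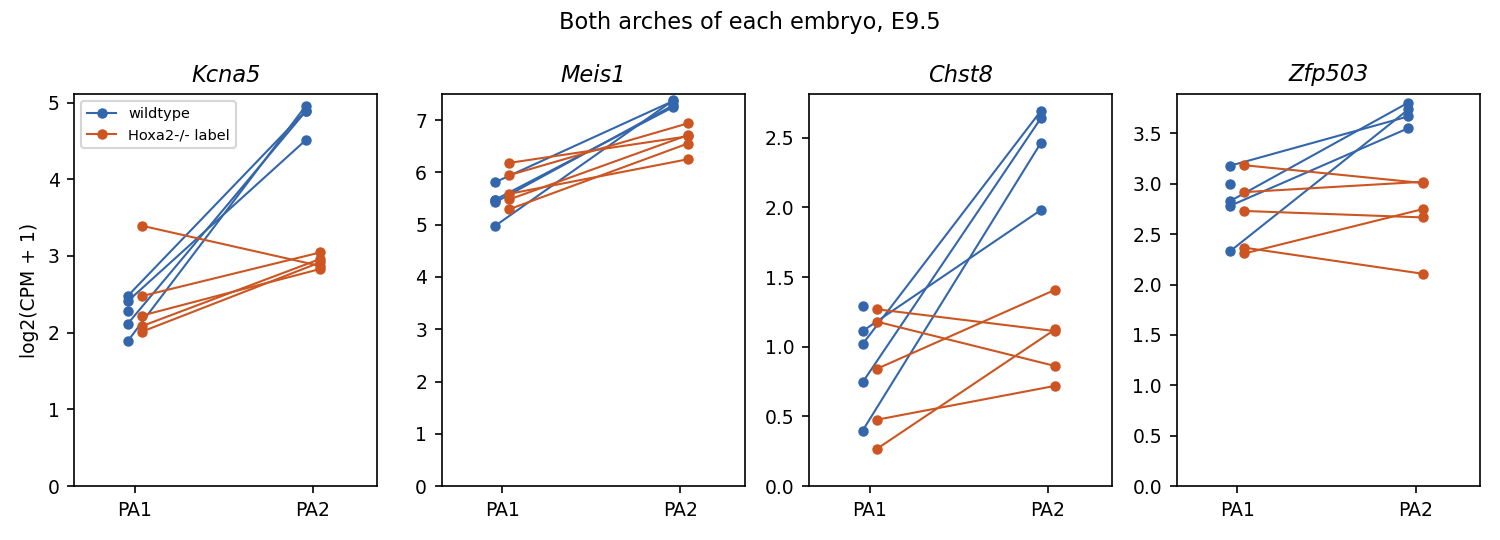
Each line joins PA1 and PA2 of 1 embryo of E9.5, with log2(CPM + 1) on the vertical axis from 0, for wildtype (blue) and the Hoxa2-/- label (orange); single points are the wildtype PA1 library without a PA2 partner. The wildtype lines of Kcna5 rise to between 21.8 and 30.1 CPM in PA2, and all labelled PA2 points stay at or below 7.26 CPM.

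The plot of both label effects shows where the 3 genes sit. On its diagonal the label effect is the same in both arches and the difference of differences is 0. Kcna5, Meis1 and Chst8 lie well below it. The 19 genes of the library division lie along it, which their choice over both arches favours. Across all genes the median difference of differences was -0.0019, with 9293 genes below 0 and 9135 above.

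**Figure D2:**
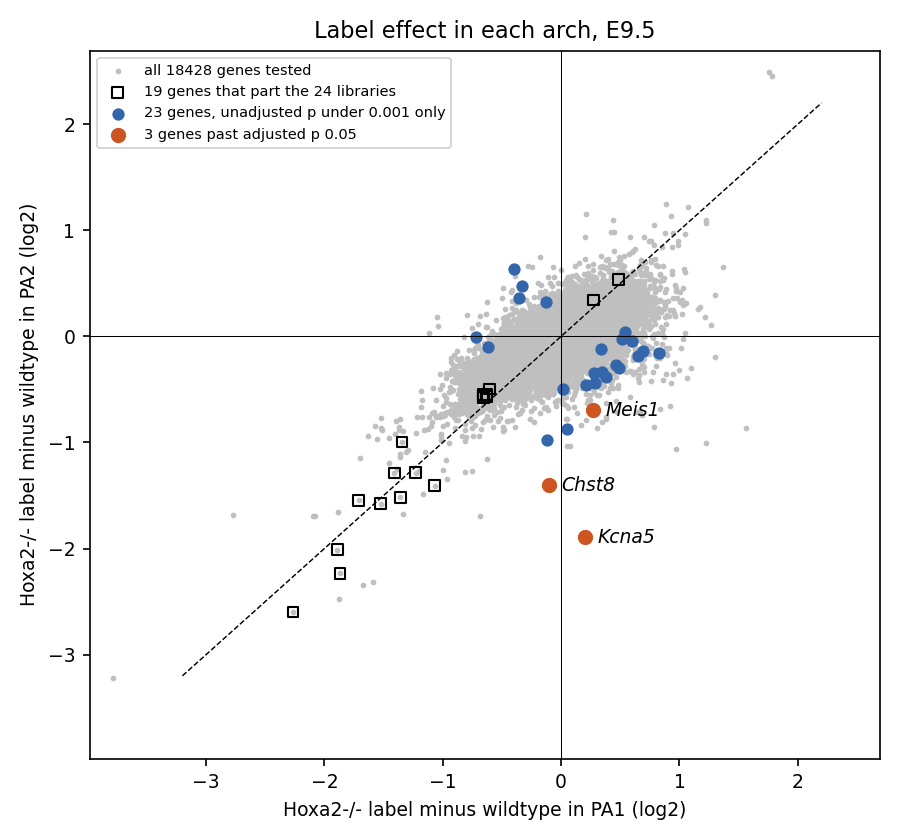
Each point is a gene, with the label effect within PA1 (horizontal) and within PA2 (vertical), both in log2, and the dashed line marks equal effects. Kcna5, Chst8 and Meis1 (orange) stand below the line at PA2 effects of -1.89, -1.40 and -0.69. The 19 genes that part the 24 libraries (open squares) were chosen over both arches and follow the line.

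Below an unadjusted p of 0.001 lay 26 genes (0.141%), 20 lower and 6 higher. The arch in which the labels differed more was PA2 for 13 of them and PA1 for the other 13. Within PA2 alone 7 of the 26 passed the test between labels (4.48% of all genes), and within PA1 alone 12 did (23.6% of all genes). Others passed in neither arch. In wildtype 19 of the 26 were higher in PA2 than in PA1. The 26 were picked by a difference made up of these same values. The counts by arch therefore partly follow from the choice and show no separate trait of these genes. Without wildtype embryo 2, 18 of the 26 passed, in a fit that shares all its embryos with the one that picked them.

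Zfp503, a zinc finger repressor reported downstream of Hoxa2, differed between labels within PA2 and missed the threshold of the paired test. Its CPM in PA2 was 11.7, 13.0, 12.3 and 10.7 in wildtype and 3.31, 5.72, 7.11, 7.04 and 5.35 with the label, with no overlap. In PA1 the values were 8.06, 6.10, 4.03, 6.97 and 5.88 in wildtype and 4.16, 3.95, 6.55, 8.09 and 5.64 with the label, which overlapped. The label effect was -0.98 in PA2 (limma adjusted p = 0.00046) and -0.12 in PA1. The arch differences were 0.49, 0.98, 1.41 and 0.77 (log2) in wildtype and -0.26, 0.44, 0.10, -0.18 and -0.06 with the label, so the groups did not overlap by a narrow margin. Their difference was -0.90 (SE 0.195, limma adjusted p = 0.187, and 0.044 without wildtype embryo 2).

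Sdk2, a cell adhesion gene of the immunoglobulin family, had a similar layout. Its CPM was 7.33, 5.46, 7.62 and 5.75 in wildtype PA2 and 3.38, 2.37, 3.48, 4.60 and 2.08 in PA2 with the label, again without overlap. Within PA2 it fell by 0.87 on the log2 scale (limma adjusted p = 0.0055), and within PA1 the effect was 0.05. The difference of differences was -1.03 (limma adjusted p = 0.343), and labelled embryo 4, at an arch difference of 0.53, overlapped the wildtype embryos.

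Other genes differed between labels within PA1. Pth1r, a receptor for parathyroid hormone and its related peptide, had 24.3, 39.0, 14.3, 31.4 and 36.2 CPM in wildtype PA1 and 55.3, 39.0, 44.5, 46.1 and 36.2 with the label. It was higher in PA1 with the label (0.65, limma adjusted p = 0.0047), and in PA2 the effect was -0.19 (adjusted p = 0.64). Cttnbp2, B4galt5 and Scarf2 were likewise higher in labelled PA1, by 0.69, 0.47 and 0.49 (limma adjusted p = 0.0025, 0.033 and 0.0496). The differences of differences were -0.78, -0.88 and -0.89 for these 3 and -0.89 for Pth1r (-0.56 without wildtype embryo 3), all with limma adjusted p between 0.458 and 0.560.

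Hira, a histone chaperone gene, ran the other way, at 0.82 (limma adjusted p = 0.545). Its CPM in wildtype PA1 was 17.1, 6.39, 14.2, 6.97 and 7.04, and with the label it was 5.81, 4.98, 3.73, 7.37 and 5.57. The 2 high values were those of wildtype embryos 1 and 3, and the other 3 wildtype PA1 libraries lay within or near the range of the label. In PA2 Hira was 5.08 to 5.96 CPM in wildtype and 4.49 to 7.83 with the label, an effect of -0.01. Slc25a12, a mitochondrial aspartate and glutamate carrier, had a difference of 0.45 (limma adjusted p = 0.294), with the arch difference between -0.76 and -0.47 in wildtype and between -0.25 and 0.04 with the label.

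Some genes passed within neither arch. Cd248, a cell surface glycoprotein of mesenchyme, had a label effect of -0.44 in PA2 (limma adjusted p = 0.135) and 0.29 in PA1 (adjusted p = 0.196), and a difference of differences of -0.81 (adjusted p = 0.545). Msx1, a homeobox gene of arch mesenchyme, had 150, 129, 95.8 and 127 CPM in wildtype PA2 and 90.1, 106, 75.5, 129 and 82.3 with the label, and 156, 151, 81.7, 132 and 233 against 175, 171, 181, 258 and 161 in PA1. Both pairs of groups overlapped. The label effects were -0.38 in PA2 and 0.38 in PA1, and the difference of differences was -0.73 (limma adjusted p = 0.532).

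**Figure D3:**
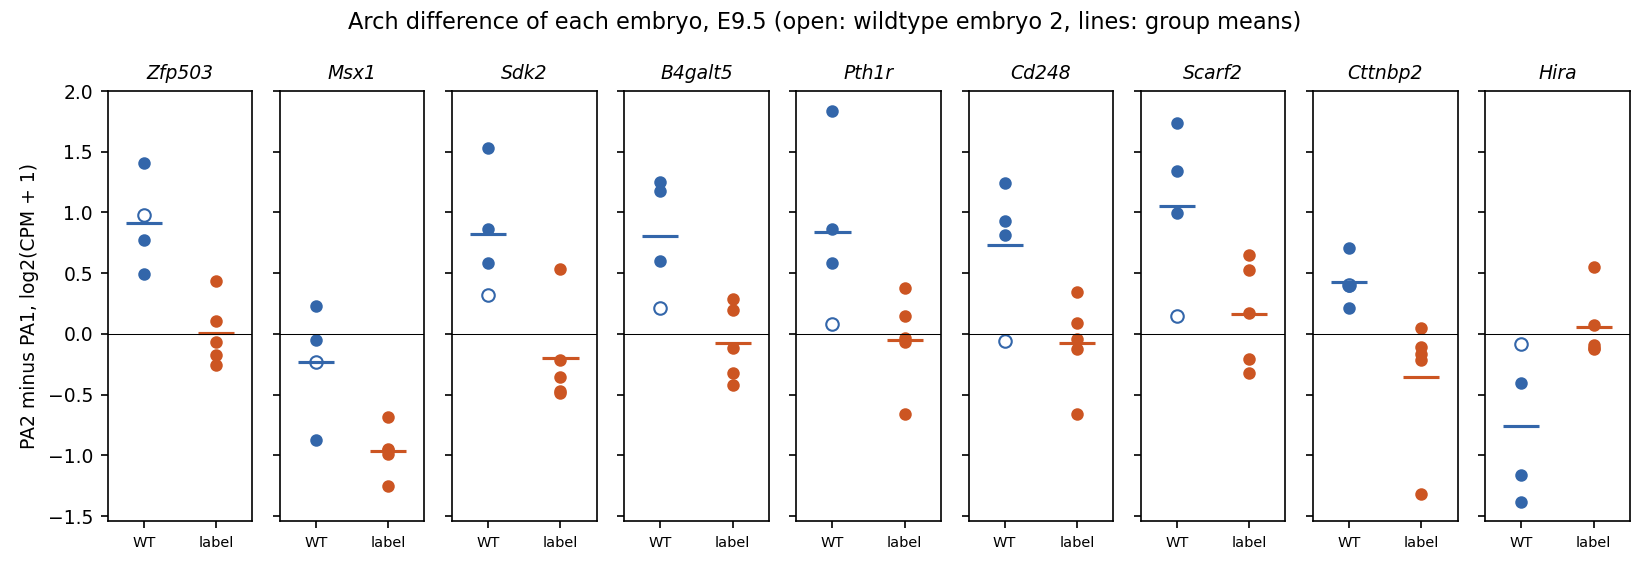
Points give PA2 minus PA1 in log2(CPM + 1) for each embryo of E9.5 in 9 genes that missed the threshold, wildtype (blue) beside the Hoxa2-/- label (orange), and the short lines are group means. Wildtype embryo 2 (open) is the wildtype value nearest to the labelled embryos in Sdk2, B4galt5, Pth1r, Cd248, Scarf2 and Hira; for B4galt5 it is 0.21 and the other wildtype embryos run from 0.60 to 1.25.

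Whether many of these genes passed depended on wildtype embryo 2. Its arch difference was 0.15 in Scarf2, against 1.00 to 1.74 in the other wildtype embryos, and -0.06 in Cd248, against 0.81 to 1.25. Without this embryo Sdk2, B4galt5, Pth1r, Cd248, Scarf2 and Hira passed (limma adjusted p = 0.031, 0.022, 0.017, 0.013, 0.013 and 0.022). Of the 136 genes that then passed, 83 differed between labels within PA1 in the fit to all libraries (23.6% of all genes). Within PA2 8 of the 136 differed (4.48% of all genes), and 0 were among the 19 of the library division. All 136 had the same sign with all embryos, but every embryo but wildtype embryo 2 is shared by both fits. The 136 were picked by the PA2 effect minus the PA1 effect in mostly the same libraries. Their counts within an arch therefore partly follow from the choice. Leaving out wildtype embryo 3 instead moved the differences of differences the other way. Sdk2, B4galt5, Pth1r, Cd248 and Scarf2 then had -0.79, -0.74, -0.56, -0.64 and -0.66 (limma adjusted p = 0.9997 each). Hira was lowest, at 0.61, without wildtype embryo 1.

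The other genes of the Hoxa2 pathway were read from lists of named genes. Members and lists were chosen with earlier results of these data known, so their counts beside those of all genes are no independent test. Among 8 measured anterior Hox genes and antisense partners 0 passed, 3 were lower at an unadjusted p under 0.05 (4.23% of all genes), and the median was -0.31. These 3 were Hoxb1 (-0.72), Hoxb2 (-0.40) and Hoxb3os (-0.40), with limma adjusted p of 0.66 each. Hoxa3 and Hoxaas2 went the other way, with overlapping embryos. Their mean arch differences were 1.12 and 3.13 in wildtype and 1.39 and 3.46 with the label. Hoxb1 was near the floor, with 1 to 3 reads in wildtype PA1 libraries and 10 to 39 in wildtype PA2 libraries. Hoxb2 in PA2 was 5.51, 4.22, 5.49 and 5.24 CPM in wildtype and 4.76, 4.41, 5.66, 4.02 and 4.17 with the label, so the groups overlapped. Hoxa2 itself had a difference of 0.31 (SE 0.179, limma adjusted p = 0.69), with a PA2 excess of 5.17 in wildtype and 5.47 with the label. It was 0.14 without labelled embryo 4, -0.015 at a pseudocount of 0.25 and -0.51 by edgeR, so its direction depended on the setting. Without strand information for the counting, reads of overlapping antisense genes such as Hoxb3os are uncertain.

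Of the 11 TALE cofactors, Meis1 alone passed, and 9 of 11 lay below 0 (9293 of 18428 over all genes), with a median of -0.10. Meis2 had 147, 139, 137 and 153 CPM in wildtype PA2 and 110, 109, 115, 129 and 128 with the label. These groups did not overlap, and within PA2 Meis2 fell by 0.28 on the log2 scale (limma adjusted p = 0.0039). Its difference of differences was -0.23 (limma adjusted p = 0.66), with arch differences of 0.30 to 0.46 in wildtype embryos and -0.02 to 0.26 with the label.

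Among 18 genes reported downstream of Hoxa2, 1 passed, 7 were lower and 1 higher at an unadjusted p under 0.05 (4.23% and 3.13% of all genes), and the median was -0.25. Within PA2, 5 of the 18 fell (2.75% of all genes) and 0 rose (1.73% of all genes). The 5 were Meis1, Meis2, Zfp503, Zfp703 and Meox1. The 7 lower genes include Meis1, described above, and Hoxb1, already counted among the Hox genes. This list too was chosen with earlier results of these data known, so its counts are not independent support. Zfp703, a corepressor gene of the same family as Zfp503, had 15.2, 12.9, 12.4 and 20.2 CPM in wildtype PA2 and 6.21, 6.46, 8.63, 14.9 and 6.74 with the label. It fell within PA2 (-0.80, limma adjusted p = 0.0024) and also within PA1 (-0.46, adjusted p = 0.031), so the difference of differences was smaller, at -0.41 (adjusted p = 0.66). Labelled embryo 4 had the high 14.9 CPM, above 2 of the 4 wildtype values.

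Meox1, a mesodermal homeobox gene, had 26.8, 24.6, 36.6 and 14.2 CPM in wildtype PA2 and 8.69, 8.91, 16.3, 1.01 and 7.64 with the label. It fell within PA2 (-1.70, limma adjusted p = 0.0017), and the 16.3 of labelled replicate 3 overlapped the 14.2 of wildtype replicate 5. Its difference of differences was -0.92 (adjusted p = 0.67; -0.45 without labelled embryo 4), and edgeR on recovered reads gave 0.20, in the other direction. Pitx1 was the member above 0 with an unadjusted p under 0.05, at 0.58 (limma adjusted p = 0.66). Its PA2 level was 0.327, 0.165, 0.762 and 1.71 CPM in wildtype and 0.138, 1.96, 0.145, 2.73 and 0.764 with the label, so a rise of this PA1 gene in PA2 was not shown at this stage.

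The relatives of Kcna5 and Chst8 did not pass with them. Of 8 measured Kv1 channel subunits only Kcna5 passed, and the median was -0.30. Kcna1 and Kcna6, which lie within 250 kb of Kcna5, had -0.37 and -0.24, and Kcna1 was at most 1.07 CPM in any library of E9.5. Kcnab1, an auxiliary Kv1 subunit, had -1.58 (limma adjusted p = 0.61), and its highest value, 13.6 CPM, was that of labelled PA1 replicate 3. Of 12 measured Golgi sulfotransferases only Chst8 passed, 6 lay below 0 and 6 above, and the median was -0.02. The 5 genes measured within 250 kb of Chst8 ran from -0.47 to 0.20 and the 4 near Meis1 from -0.45 to -0.07, and 0 of these 11 neighbours passed.

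The labelled PA1 library of replicate 3 held the highest E9.5 value of several of these genes. Beside Kcna5 at 9.51 CPM in PA1 and Kcnab1 at 13.6, it had Fgfr3 at 43.3 CPM, against 5.43 to 11.1 in the other labelled PA1 libraries. It had Cttnbp2 at 35.4 CPM, against 12.3 to 17.9, and Chst5, another sulfotransferase, at 9.73, against 1.44 to 2.85. Without this embryo 1 gene passed the paired test, Kcna5. This library also had the highest summed epithelium markers of the 19, 1473 CPM against 751 to 1003 in the other labelled PA1 libraries. Its endothelium markers were highest too, at 432 CPM against 199 to 367 in the other labelled PA1 libraries, though labelled PA2 replicate 2 had 422. Their part in these values was not tested.

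The signalling lists gave no gene past the threshold (0 of 19 for FGF, 0 of 27 for Wnt, 0 of 15 for retinoic acid and 0 of 14 for BMP). At an unadjusted p under 0.05 (4.23% of all genes lower and 3.13% higher), 1 FGF gene was lower (Fgfr3, -0.996) and 1 higher (Fgf17, 0.40). In the Wnt list 3 genes were lower (Sfrp1, Tcf7 and Wnt6, -0.41 and -0.50 for the last 2, the latter -0.31 without labelled embryo 3). The retinoic acid list held 1 higher gene (Aldh1a3), and 0 BMP genes differed. By edgeR only Kcna5 and Meis1 passed among all genes, so these lists held 0 calls there too. The medians were -0.01 for FGF and -0.04 for retinoic acid genes, near the -0.0019 of all genes. For Wnt genes 24 of 27 lay below 0 with a median of -0.22, and for BMP genes 12 of 14 with a median of -0.26. Over all genes 9293 of 18428 lay below 0. Sfrp1, a secreted Wnt inhibitor, had -0.55 (limma adjusted p = 0.66), with PA1 higher by 0.47 with the label (adjusted p = 0.035) and PA2 at 0.01. Without wildtype embryo 2, Sfrp1 was the member of these 4 lists that passed (adjusted p = 0.039). Aldh1a3, a retinoic acid synthesis enzyme, had 0.75 (limma adjusted p = 0.66; 0.42 without wildtype embryo 3), and it fell within PA1 with the label (-0.88, adjusted p = 0.0083).

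The genes that pattern the jaw showed no arch-specific call. Of 19 jaw and mesenchyme homeobox genes 0 passed, with 9 below 0, 10 above and a median of 0.04. Of 12 Dlx, endothelin and Hand genes, which set the upper and lower jaw domains, 0 passed and the median was -0.09. Dlx1 was higher at an unadjusted p under 0.05 (0.49, limma adjusted p = 0.66; 0.30 without labelled embryo 3), at 36.4, 39.9, 42.4 and 35.4 CPM in wildtype PA2 and 57.6, 48.1, 58.3, 73.3 and 41.0 with the label, which overlapped. Of the 5 Nr2f and Zfp genes 0 passed and 3 fell within PA2 (2.75% of all genes), Nr2f1 beside Zfp503 and Zfp703. Nr2f1 fell within PA1 too (limma adjusted p = 0.0021). Nr2f2, an orphan nuclear receptor, had a difference of 0.31 (limma adjusted p = 0.66; 0.19 without wildtype embryo 3).

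**Figure D4:**
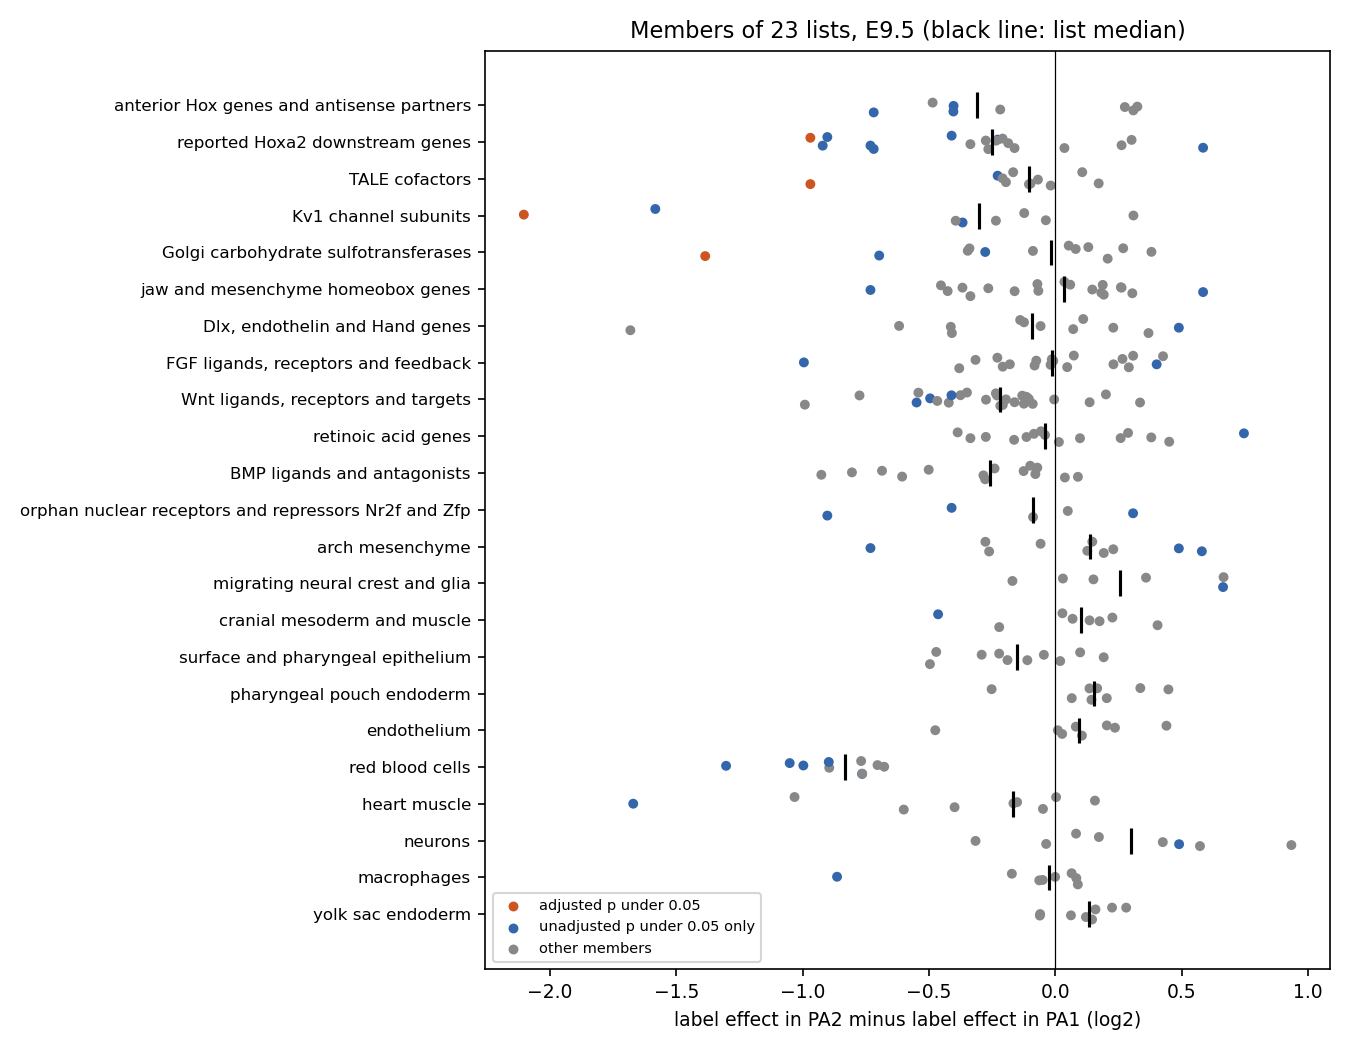
Each point is a gene of 1 of 23 lists, placed by its label effect in PA2 minus that in PA1 (log2), with the list median as a black line. Orange points passed the test (Kcna5, Chst8 and Meis1, which is in 2 lists), and the red blood cell list has all 10 points below 0.

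Other cell types varied between the arches of the embryos. All 10 red blood cell markers lay below 0 (9293 of 18428 over all genes), with a median of -0.83, and 0 passed. At an unadjusted p under 0.05 lay 5 of them (Hba-a1, Hba-a2, Hbb-bt, Slc4a1 and Alas2), against 4.23% of all genes lower. The 10 markers follow 1 cell type, so they are not 10 separate results. Hbb-bt was lower with the label in both arches (-2.35 in PA2 and -1.68 in PA1, limma adjusted p = 0.021 and 0.035). Without wildtype embryo 2 the differences of differences were -0.75 for Hba-a1, -0.70 for Hba-a2, -0.49 for Hbb-bt and -0.65 for Alas2. Hba-a1 and Hba-a2 are near-identical copies, so their separate counts are uncertain. The 10 markers summed to 2415 to 5430 CPM in wildtype PA2, highest in embryo 2, and to 918 to 3743 in PA2 with the label. In PA1 they summed to 2770 to 3949 in wildtype and 2287 to 6193 with the label. Heart muscle markers summed to 61.6, 73.0, 1016 and 237 CPM in wildtype PA2 and to 67.9, 455, 705, 15.1 and 400 in PA2 with the label. Both groups held high and low libraries. Without the 4 embryos over 300 CPM, 3 wildtype and 2 labelled embryos were left and 1 gene passed. Kcna5 then had -2.02 (limma adjusted p = 0.0045), Meis1 -0.90 (adjusted p = 0.106) and Chst8 -1.47 (adjusted p = 0.106). Macrophage markers summed to at most 8.87 CPM and yolk sac markers to at most 24.6 CPM. Medians of the neural crest, mesoderm, epithelium, pouch, endothelium and neuron lists ran from -0.15 to 0.30. The part of these cell types in the differences was not tested.

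The same arch-specific effect was measured at the other stages, which share no library with E9.5. At E9.0, 3 genes passed (0.0163%), at E10.0 4 (0.0217%) and at E10.5 10 (0.0543%). Leaving out single embryos gave 0 to 9, 4 to 5 and 5 to 11 calls, the 9 without labelled embryo 2 of E9.0 and the 5 at E10.5 without labelled embryo 3. The 3 at E9.0 were mt-Co3, Gm13341 and Gm28661. The 4 at E10.0 were Meis2, E330013P04Rik, 3110099E03Rik and Kcna5 (-1.68, SE 0.241, limma adjusted p = 0.00067). At E10.0 both labels lay on the same side of the library division. Its PA2 level there was 29.4, 41.9, 18.7, 32.4 and 25.9 CPM in wildtype and 8.64, 10.1, 10.498, 7.72 and 7.53 with the label, without overlap, as at E9.5.

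At E9.0 and E10.5 the wildtype level of Kcna5 in PA2 was lower. It was 10.45, 11.7, 7.23 and 6.55 CPM at E9.0, against 5.11, 4.44, 3.79 and 4.06 with the label, and 9.42, 8.43 and 8.76 CPM at E10.5, against 11.9, 10.9 and 8.34. The groups were apart at E9.0 and overlapped at E10.5. The arch-specific effect was -0.76 (limma adjusted p = 0.419) and -0.28 (adjusted p = 0.935), and the effect at E9.5 did not pass as different from that at E9.0 (-1.34, adjusted p = 0.27), E10.0 (-0.42, adjusted p = 0.90) or E10.5 (-1.82, adjusted p = 0.25). Without wildtype embryo 2 of E9.5, the difference from E10.5 passed (-1.88), as it did with all embryos at a pseudocount of 5 (-1.51).

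Meis1 and Chst8 did not pass at another stage. The values of Meis1 were -0.22, -0.38 and -0.74 at E9.0, E10.0 and E10.5 (limma adjusted p = 0.684, 1.0 and 0.219). At E10.5 Meis1 in PA2 was 273, 265 and 263 CPM in wildtype and 154, 120 and 163 with the label, and within PA2 it fell by 0.88 on the log2 scale (adjusted p = 0.00041), where 10.3% of all genes were called. Chst8 had 0.02, -0.65 and -0.997 (limma adjusted p = 0.988, 1.0 and 0.400). Its PA2 level at E10.5 was 2.28, 2.16 and 2.00 CPM in wildtype and 0.763, 0.560 and 0.561 with the label, also apart.

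Meis2 had another course. It was -0.01 at E9.0, -0.23 at E9.5, -0.49 at E10.0 (limma adjusted p = 0.0018) and -0.87 at E10.5 (adjusted p = 6.21e-06), so it passed at the 2 stages after E9.5. The wildtype PA2 level at E10.5 was 175, 182 and 169 CPM and that with the label 109, 111 and 113. The difference between the effects at E9.5 and E10.5 was 0.64 (limma adjusted p = 0.093). Zfp503 had -0.52, -0.34 and -0.81 and Zfp703 -0.25, -0.67 and -0.54 at the other stages, with 0 calls. Pitx1 passed at E10.5 (2.01, limma adjusted p = 0.00044), with 0.259, 1.00 and 0.610 CPM in wildtype PA2 and 7.86, 4.80 and 5.89 with the label. Its effect at E9.5 differed from that by -1.42 (limma adjusted p = 0.436), so a difference between the stages was not shown. 8430419K02Rik, the neighbour of Meis1, also passed at E10.5 (-1.11), against -0.16 at E9.5. Hoxa2 rose at E10.5 (1.27, limma adjusted p = 0.0055), with 57.2, 63.3 and 54.5 CPM in wildtype PA2 and 147, 134 and 116 with the label. At E10.0 the difference of differences of Hoxa2 was 0.78 (limma adjusted p = 0.134), and within PA2 it was higher by 1.02 with the label (adjusted p = 0.00011).

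Tested gene by gene, the effect at E9.5 differed from that at E9.0 for 0 genes (0%), from E10.0 for 1 (0.00543%) and from E10.5 for 1 (0.00543%), which was 3110099E03Rik both times. At an unadjusted p under 0.05 the limma counts were 2063 (11.2%), 845 (4.59%) and 1649 (8.95%). Without wildtype embryo 2 of E9.5 these counts were 135, 1 and 107. Of the 26 genes with an unadjusted p under 0.001 at E9.5, 11 had the same sign at E9.0, 15 at E10.0 and 11 at E10.5. Over all genes 45.9%, 47.9% and 40.8% kept their sign.

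**Figure D5:**
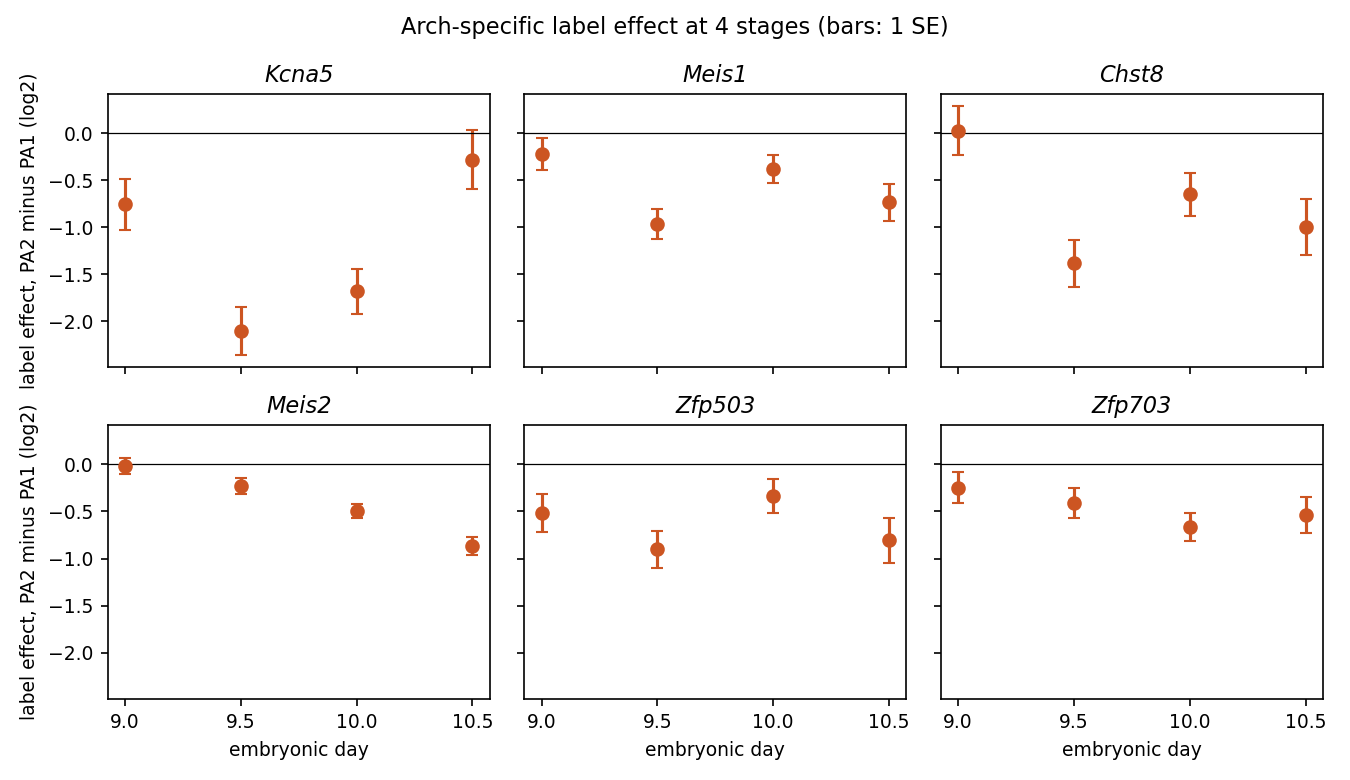
Points give the label effect in PA2 minus that in PA1 (log2, vertical axis) at 4 stages (embryonic day, horizontal axis) for 6 genes, with 1 SE as bars. Kcna5 is lowest at E9.5 (-2.10) and E10.0 (-1.68), and Meis2 runs from -0.01 at E9.0 to -0.87 at E10.5.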

How the data were processed

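RNA of single dissected arches was extracted with TRIzol, amplified with the SMART-seq v4 kit and made into Nextera XT libraries, per the labels' protocols. Per the submitters' processing notes, bcl2fastq 2.18, TopHat2 2.1.1, R 3.3.2 and the mm10 build were used. The counting program, annotation and strand setting are not given in the sources used here. The authors deposited 1 table of signal values (scaled CPM) for 21948 Ensembl genes and 68 libraries. Column totals of 926298 to 1051959 were not equal, and 100% of values were whole multiples of 1 read within 0.001, so depth was read from them; amplified reads without molecular identifiers are not independent molecules. Symbols and positions came from GENCODE M21 (21921 matched) and promoters from RefSeq.

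Genes with at least 1 CPM in at least 3 libraries were kept (18428). For each of 33 embryos with both arches of 35, PA2 minus PA1 was taken on log2(CPM + 1), a scale that understates the change of low genes. These were fitted with limma 3.58.1 in R 4.3.3 (1 mean per label and stage, trended prior variance, 25 residual degrees of freedom, two-sided, Benjamini-Hochberg adjustment, threshold 0.05). Effects within an arch came from all 68 libraries (52 residual degrees of freedom). The median SE was 0.175 for the paired difference, 0.141 within PA2 and 0.133 within PA1. The pairing rests on the series text. At E9.5, 7 of 9 same-number pairs deviated together (r above 0.1, median 0.306), and the median was -0.123 for 36 different-number pairs. Deviations were taken from group means, so positive same-number pairs push the others to negative values. The -0.123 is therefore not independent of the 0.306. No 2 libraries of a group were copies (lowest chi-square per gene 6.93 over 36 pairs). That replicates are separate embryos follows from the series text. On simulated data for 18428 genes the paired test recovered 45 of 50 genes changed 2-fold and 44 of 50 at 0.5-fold. At 3-fold and 4-fold it recovered 46 and 48 of 50. There were 23 false calls among 18228 unchanged genes, a larger share of all calls than the 0.05 threshold aims at. Many more genes changed there than were called at E9.5, which makes the adjusted threshold easier to pass. The recovery therefore need not hold for the real data.

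Named genes were those past the threshold, up to 10 a direction with an unadjusted p under 0.001, a mean of at least 5 CPM in a group and an annotated symbol, Hoxa2, Kcna5 and Meis1, and list members with an unadjusted p under 0.05 or up to 4 by size; Kcna6, Nr2f1, 3110099E03Rik, 8430419K02Rik and the calls at E9.0 and E10.0 were named after their values were seen. Members and lists were chosen with earlier results of these data known. The settings varied were the pseudocount (0.25 or 5), the filter (5 CPM or none), median-of-ratios scaling, no replicate block, only E9.5 groups, edgeR 4.0.16 on recovered reads, and each embryo left out. Leaving out embryos by heart markers was added after seeing the data.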

Additional observations from a re-analysis of the deposited data

Results flagged for a closer look

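In 42 groups of 4 or 5 values of the named genes at E9.5, the highest or lowest value was tested for standing apart from the rest, and 5 did, where chance gives about 2.1 (1 in 20). Kcna5 in PA1 with the Hoxa2-/- label was 9.51 CPM in replicate 3, and the next was 4.57. The Kcna5 arch difference of the same embryo was -0.52 (log2), and the next was 0.57. In Cttnbp2 this embryo was again lowest, at -1.32, and the next was -0.21. In Hoxa2, PA2 replicate 4 with the label had 102 CPM, and the next library had 53.5. In Sdk2, labelled embryo 4 had the highest arch difference, 0.53, and the next was -0.22.

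The label effect differed between PA2 and PA1 by -2.10 in Kcna5, by -0.97 in Meis1 and by -1.39 in Chst8 (log2, limma). Between stages, the arch-specific effect of 3110099E03Rik was -0.06 at E9.5 and -2.36 at E10.0, a difference of 2.30, and -2.96 at E10.5, a difference of 2.90.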

How the results depend on the processing

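The comparison rests on 4 wildtype and 5 labelled embryos, and Chst8 on 9 to 24 reads per labelled PA2 library. With no replicate block (the arches not paired by embryo), 2 genes passed at E9.5 and Meis1 did not (-0.96, adjusted p = 0.054), 0 at E9.0, and 0 for the difference from E10.0 and from E10.5; Chst8 at E9.0 turned to -0.035. With the replicate block and only E9.5 embryos 0 genes passed, and with only E9.5 groups 459 passed within PA2. At E9.5 the SDs of the arch differences (wildtype, label) were 0.42 and 0.58 in Kcna5 and 0.36 and 0.33 in Meis1. In Chst8 they were 0.53 and 0.49. At the other stages these SDs ran from 0.21 to 0.54 in Kcna5, 0.06 to 0.34 in Meis1 and 0.12 to 0.40 in Chst8. EdgeR with the replicate block gave 2 genes at E9.5 and 6 at E10.5, with Hoxa2 at -0.51 and Meox1 at 0.20. A pseudocount of 0.25 gave 0 genes differing from E10.0 and 0 from E10.5, Hoxa2 at -0.015 and Chst8 at -1.79 (adjusted p = 0.31). A pseudocount of 5 gave 8 genes at E10.0, 36 at E10.5 and 12 differing from E10.5, Kcna5 among them (-1.51). Without the filter 22 passed at E10.5, and the 5 CPM filter removed Chst8. Without the 4 embryos of high heart markers 1 gene passed. The causes of these changes were not tested.

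Leaving out 1 embryo each gave 1 to 136 genes at E9.5 (136 without wildtype embryo 2, 1 without labelled embryo 3), 0 to 9 at E9.0, 4 to 5 at E10.0 and 5 to 11 at E10.5. It gave 297 to 780 genes within PA2, 2718 to 5243 within PA1, and 0 to 135, 1 to 1 and 1 to 107 for the differences from E9.0, E10.0 and E10.5. Chst8 at E9.0 ran from -0.14 to 0.15, below 0 without wildtype embryos 2 or 5 or labelled embryo 3 of that stage. Within PA1 at E9.5, Kcna5 ran from -0.033 (without labelled embryo 3) to 0.31, and Chst8 from -0.23 to 0.029 (without labelled embryo 5). Of single-gene values, 1113 kept direction and side of the threshold, 9 changed direction, 11 came past the threshold and 15 fell short of it.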
